A study of Mus musculus with 8 samples.

Results

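Cadherins and the catenins that bind them were followed in bEnd.3 cells after addition of Norrin; the line was derived from mouse brain endothelium and is immortalised. The set is 10 genes, taken by symbol from the deposited gene table: the cadherin genes Cdh2, Cdh5, Cdh6 and Cdh13, the protocadherin genes Pcdh1, Pcdh12 and Pcdh17, and the catenin genes Ctnna1, Ctnnd1 and Jup. All 10 of the 10 symbols were found among 15452 named genes, and all 10 had enough reads to be tested. Cdh6 was selected on its counts in these same libraries, which were lower with Norrin, so its difference is described here and not tested. The other 9 were given by symbol, with earlier results of these data known. The Norrin group consists of 4 cultures that received recombinant Norrin at 200 ng/ml, added 24 h after seeding and left for 24 h. The vehicle group consists of 4 cultures that received the carrier, phosphate-buffered saline with bovine serum albumin. The labels call the cultures biological replicates without saying what separated them, and the p-values given here reflect only that culture-to-culture variation, which may be technical. All 8 come from 1 cell line grown in serum, which limits them as a model of brain vessels.

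Cadherins are calcium-dependent adhesion proteins that join neighbouring cells by their outer domains. Inside the cell, the tails of classical cadherins bind p120-catenin, which slows their removal from the surface, and either beta-catenin or plakoglobin, which recruit alpha-catenin and through it the actin cytoskeleton. VE-cadherin is the main adhesion protein of endothelial junctions. Norrin is a ligand of Frizzled-4 that stabilises the signalling pool of beta-catenin, the same protein that sits at junctions.

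RNA was sequenced after removal of ribosomal RNA, and the total count per library ran from 13445380 to 14905863 in the Norrin cultures and from 12463942 to 15220576 in the vehicle cultures. Levels are given as CPM, counts scaled to a common library total after TMM scaling of the library totals. The response to Norrin was checked by Axin2, a feedback inhibitor and classical target of beta-catenin, which averaged 6.72 ± 1.04 CPM with Norrin and 0.360 ± 0.214 CPM with vehicle (SD, n = 4 each). Of 14 listed endothelial markers 13 were in the table, among them Pecam1 at 1438 ± 20.8 CPM with Norrin and 1537 ± 34.6 CPM with vehicle (SD, n = 4 each). Of these 13, 2 rose, 1 fell and 10 did not pass (edgeR adjusted p under 0.05), and their median log2 fold change was −0.07. The share that passed was 23.1%, beside 2.17% of all tested genes. Unadjusted, 7 had a p under 0.05 in edgeR, as did 11.3% of all tested genes. The groups did not overlap for 5, among them Pecam1, lower with Norrin, as was so for 7.01% of all tested genes. Esam, a junctional adhesion gene, rose, at 551 ± 22.7 CPM with Norrin and 446 ± 14.4 CPM with vehicle (SD, n = 4 each; log2 fold change 0.31, edgeR adjusted p = 1.79e-05). Cd34 rose (log2 fold change 0.17, edgeR adjusted p = 0.0258). Egfl7 fell (log2 fold change −0.16, edgeR adjusted p = 0.0379). The Cd34 call was lost with Norrin replicate 1 or 4 or vehicle replicate 2 or 3 left out, and the Egfl7 call with any library left out but Norrin replicate 4 or vehicle replicate 1. Of the 10, Eng passed in edgeR without Norrin replicate 4 (log2 fold change −0.20, adjusted p = 0.0311, against 0.284 with all libraries). Kdr passed by DESeq2 (−0.11, adjusted p = 0.045). The part of these differences in the results below was not tested. Of 11 epithelial markers 1 was in the table, Krt19, at 0.288 ± 0.248 CPM with Norrin and 0.554 ± 0.589 CPM with vehicle (SD, n = 4 each). Mural and fibroblast markers had 6 of 14 in the table and neural markers 4 of 12. Of the 8 that could be tested, 0 had an adjusted p under 0.05 in edgeR, in DESeq2 or in limma-voom (unadjusted, 2 did in edgeR). The neural markers Gad2 and Nefl were the most abundant of them. Gad2 averaged 72.6 ± 4.69 CPM with Norrin and 63.8 ± 2.46 CPM with vehicle, and Nefl 37.2 ± 7.76 and 37.6 ± 1.58 CPM (SD, n = 4 each). Among mural and fibroblast markers, Pdgfra had the highest vehicle mean, at 4.08 ± 1.87 CPM, beside 3.81 ± 0.670 CPM with Norrin. The neural marker Fgfr3 passed in edgeR without Norrin replicate 4 (log2 fold change −2.85, adjusted p = 0.011, against 0.235 with all libraries). It rested on few reads, 4, 3, 0 and 16 in Norrin replicates 1 to 4 and 17, 17, 25 and 10 in vehicle replicates 1 to 4.

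Per unit of length, VE-cadherin RNA was the most abundant of the set. Cdh5, encoding VE-cadherin, stood at 497 ± 14.3 CPM per kb with Norrin and 502 ± 9.95 CPM per kb with vehicle (SD, n = 4 each), where the length is the union of the gene's exons in GENCODE M21 and not the authors' own. Ctnna1, the gene of alpha-catenin, followed at 132 ± 2.17 CPM per kb with Norrin and 135 ± 3.13 CPM per kb with vehicle. Ctnnd1, the gene of p120-catenin, stood at 45.4 ± 1.67 CPM per kb with Norrin and 43.9 ± 1.56 CPM per kb with vehicle. Pcdh1, a protocadherin gene, came next at 37.4 ± 2.75 CPM per kb with Norrin and 39.4 ± 2.25 CPM per kb with vehicle. Cdh13 encodes T-cadherin, which is held in the membrane by a lipid anchor and has no tail for catenins. It stood at 30.1 ± 0.826 CPM per kb with Norrin and 29.2 ± 0.454 CPM per kb with vehicle.

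The other members lay several times lower. Pcdh12, an endothelial protocadherin gene, stood at 7.18 ± 0.980 CPM per kb with Norrin and 7.39 ± 0.671 with vehicle. Cdh2, encoding N-cadherin, stood at 6.5 ± 0.614 CPM per kb with Norrin and 5.88 ± 0.403 with vehicle. Jup, the gene of plakoglobin, stood at 1.78 ± 0.351 CPM per kb with Norrin and 2.11 ± 0.174 with vehicle. In the vehicle cultures every gene's 4 libraries lay above all 4 of the next gene in this order, which ended with Cdh6 at 1.57 ± 0.195 and Pcdh17 at 1.03 ± 0.0677 CPM per kb. In the Norrin cultures the last places were exchanged, with Pcdh17 at 1.46 ± 0.168 and Cdh6 at 0.651 ± 0.130 CPM per kb. There Pcdh12 overlapped with Cdh2 and Jup overlapped with Pcdh17. By the authors' deposited RPKM, which uses their own lengths, Cdh5 and Ctnna1 also came first, while Cdh13 came directly after them. Cdh2 then ranked above Pcdh12 in both groups (RPKM 19.1 against 12.1 with Norrin, 17.4 against 12.6 with vehicle). Cdh6 ranked above Jup with vehicle.

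**Figure D1:**
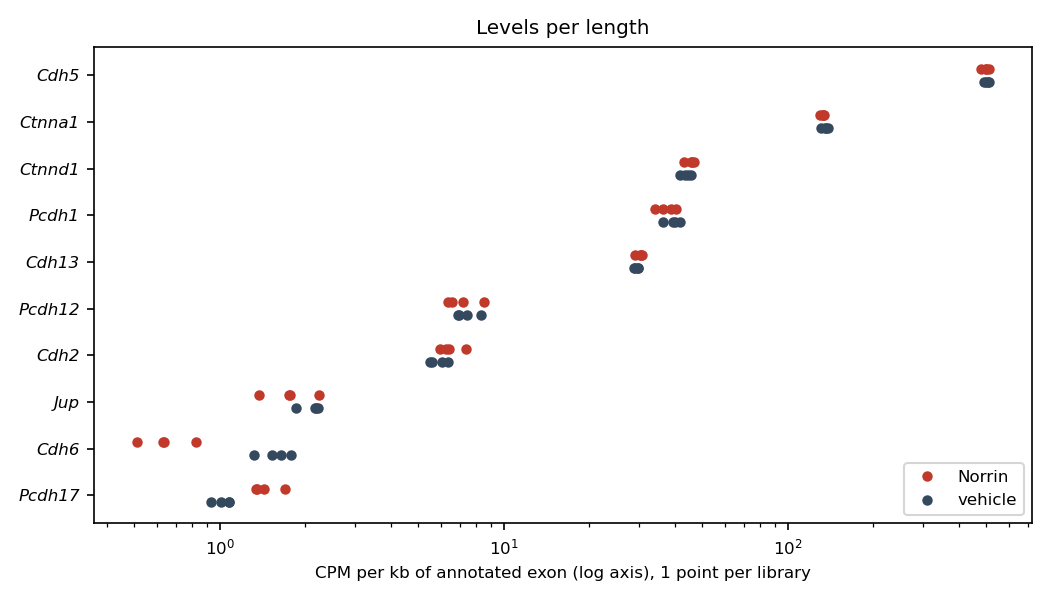
Level of each gene in CPM per kb of annotated exon (log axis), with 1 point per library, Norrin above vehicle for each gene. Cdh5 lies near 497 (Norrin) and 502 (vehicle) CPM per kb, and the lowest place is held by Cdh6 with Norrin and by Pcdh17 with vehicle.

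Within the 4 cadherin genes Cdh2, Cdh5, Cdh6 and Cdh13, Cdh5 made up 93.0% ± 0.202 of the length-scaled CPM with Norrin and 93.2% ± 0.169 with vehicle (SD, n = 4 each). Cdh13 made up 5.64% ± 0.212 with Norrin and 5.43% ± 0.0954 with vehicle. Cdh2 made up 1.22% ± 0.108 with Norrin and 1.09% ± 0.0785 with vehicle. The share of Cdh6 was 0.122% ± 0.0235 with Norrin and 0.291% ± 0.0369 with vehicle, so the gene chosen for its lower level was a small part of the cadherin RNA in either group.

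The question of the series was which genes respond to Norrin. In the fit across all 13666 tested genes, 296 passed, which is 2.17% (edgeR quasi-likelihood test, two-sided, Benjamini-Hochberg adjusted p under 0.05), while 11.3% had an unadjusted p under 0.05. DESeq2 called 3.06% and limma-voom 1.78% of the genes they tested. Of the 9 members other than Cdh6, 1 rose, 0 fell and 8 did not pass. Their median log2 fold change was −0.02, beside 0.00 over all tested genes. The member that rose was Pcdh17. The remaining 8 had log2 fold changes between −0.24 and 0.15, and for all 8 the 95% interval excluded a 1.5-fold change in either direction. In bulk RNA, fewer cells that express a gene and less RNA per cell cannot be told apart, here and below.

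**Figure D2:**
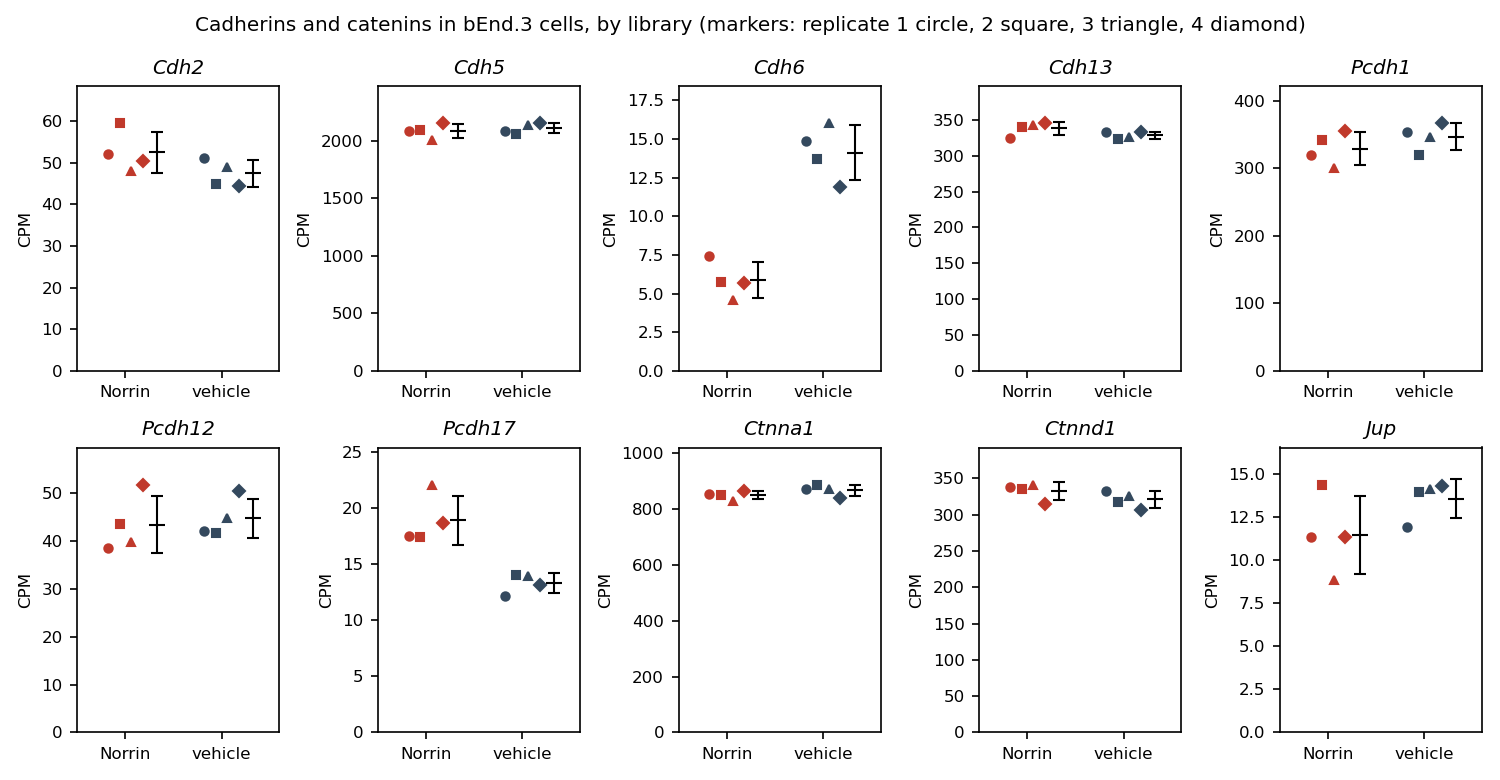
Level of each of the 10 genes in CPM, in 4 Norrin and 4 vehicle libraries, with the mean and SD as a bar beside each group. The groups are separate for Cdh6, between 4.61 and 7.45 CPM with Norrin and between 11.9 and 16.03 CPM with vehicle, and for Pcdh17, and they overlap for the other members.

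Cdh6 encodes a type II classical cadherin, called K-cadherin from its place in the kidney, whose tail binds beta-catenin and p120-catenin. It stood at 7.45, 5.76, 4.61 and 5.68 CPM in Norrin replicates 1 to 4, against 14.9, 13.7, 16.03 and 11.9 CPM in vehicle replicates 1 to 4. Every Norrin library lay below every vehicle library. These levels rest on 63 to 110 reads per library with Norrin and 148 to 249 with vehicle. The mean was 5.88 ± 1.17 CPM with Norrin and 14.1 ± 1.76 CPM with vehicle (SD, n = 4 each), a log2 fold change of −1.26 with a standard error (SE) of 0.17, or 0.417-fold. With any 1 library left out the value stayed between −1.40 and −1.16. Against the vehicle mean, the Norrin libraries stood at −0.91, −1.29, −1.61 and −1.31 on the log2 scale. By log2 fold change, Cdh6 ranked 13 from the bottom among all 13666 tested genes and 12 among the 13290 with at least 1 CPM in 1 group. Among the 10313 with at least 5 CPM in 1 group it ranked 1. Since Cdh6 was chosen for its lower level, these ranks only describe that choice.

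Pcdh17 encodes a non-clustered protocadherin, known in the nervous system for its part in axon growth and synapse organisation. It stood at 17.5, 17.4, 22.1 and 18.7 CPM in Norrin replicates 1 to 4, against 12.1, 14.02, 13.97 and 13.2 CPM in vehicle replicates 1 to 4. The groups did not overlap, as was so for 7.01% of all tested genes. The mean was 18.9 ± 2.18 CPM with Norrin and 13.3 ± 0.879 CPM with vehicle (SD, n = 4 each). The log2 fold change was 0.51 ± 0.13 (SE), or 1.42-fold, with an adjusted p of 0.028 (edgeR). The call was kept without Norrin replicate 1, 2 or 4 (adjusted p = 0.0418, 0.0431 and 0.0362). It was lost without Norrin replicate 3 (log2 fold change 0.42, adjusted p = 0.154) and without vehicle replicate 1, 2, 3 or 4 (0.47, 0.53, 0.53 and 0.50; adjusted p = 0.0909, 0.0517, 0.0574 and 0.0788).

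**Figure D3:**
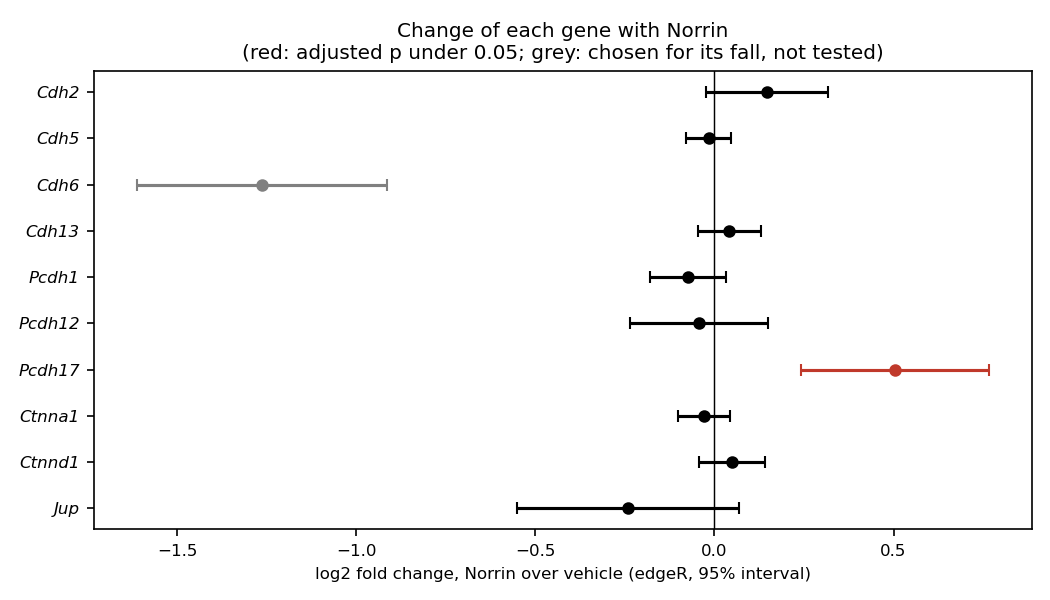
Log2 fold change of each gene, Norrin over vehicle, with its 95% interval from the fit across all genes. Pcdh17 (0.51, red) passed the threshold, Cdh6 (−1.26, grey) was chosen for its lower level and not tested, and the intervals of the other 8 genes (black) include 0.

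Cdh6 and Pcdh17 were the members whose libraries separated by group, and their promoter sequences are shown for that reason. They are the 250 bases before the annotated start in RefSeq, build GRCm38.p6, read 5′ to 3′ on the gene's strand. Capitals mark the short core CAAAG, or CTTTG on the other strand, that TCF and LEF factors, the DNA-binding partners of beta-catenin, recognise. The Cdh6 window lies at chr15:13173676-13173925 on the minus strand and the Pcdh17 window at chr14:84443313-84443562 on the plus strand.
Cdh6: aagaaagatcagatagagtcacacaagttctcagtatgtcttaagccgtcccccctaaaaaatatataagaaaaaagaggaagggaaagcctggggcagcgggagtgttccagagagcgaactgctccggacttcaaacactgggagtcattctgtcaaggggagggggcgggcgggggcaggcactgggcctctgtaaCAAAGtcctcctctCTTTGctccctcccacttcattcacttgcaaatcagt
Pcdh17: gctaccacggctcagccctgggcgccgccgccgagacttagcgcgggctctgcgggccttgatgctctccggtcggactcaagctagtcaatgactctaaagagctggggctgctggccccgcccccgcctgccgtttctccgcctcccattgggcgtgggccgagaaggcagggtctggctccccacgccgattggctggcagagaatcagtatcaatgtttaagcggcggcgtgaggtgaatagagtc
The Cdh6 window holds the short core 2 times, with first bases 51 and 37 bases before the start, and the Pcdh17 window 0 times. It is found in 48.6% of the 32851 promoter windows of this length. The longer core CTTTGA, searched first on both strands and found in 13.8% of all windows, and the E-box CACCTG, which Snail-family repressors of cadherin genes bind and which 17.2% hold, occur in neither. The promoter table held 4 of the 10 genes, and the windows of the other genes matched, Ctnnd1 (2 windows) and Jup, hold none of these letters either. A match to such short letters describes the sequence and is not a binding site.

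Among classical cadherins that did not pass, Cdh2 had the highest log2 fold change. N-cadherin joins endothelial cells to pericytes in brain vessels. Cdh2 stood at 52.0, 59.5, 48.0 and 50.3 CPM in Norrin replicates 1 to 4, against 51.2, 45.0, 49.0 and 44.4 CPM in vehicle replicates 1 to 4. The groups overlapped, and the log2 fold change was 0.15 ± 0.08 (SE; edgeR adjusted p = 0.549; 95% interval −0.02 to 0.32). Cdh5 ran from 2008 to 2155 CPM in the Norrin libraries and from 2064 to 2154 CPM in the vehicle libraries. Its log2 fold change was −0.02 ± 0.03 (SE), with a 95% interval of −0.08 to 0.05. Cdh13 ran from 324 to 345 CPM with Norrin and from 323 to 333 CPM with vehicle, and its log2 fold change was 0.04 ± 0.04 (SE). The ratio of Cdh2 to Cdh5 within a library, which no scaling of libraries can change, was −5.32 ± 0.125 with Norrin and −5.48 ± 0.106 with vehicle on the log2 scale (SD, n = 4 each). The difference of 0.16 did not pass (exact permutation test, two-sided, p = 0.114, or 0.229 adjusted over the 4 ratios tested). Of 15 other classical cadherin genes listed, 3 were in the table, 2 had enough reads, and edgeR called 0 (0 also unadjusted at p under 0.05, and 0 by DESeq2 or limma-voom). These were Cdh18, at 3.21 ± 0.783 CPM with Norrin and 3.36 ± 0.408 CPM with vehicle, and Cdh24, at 1.39 ± 0.747 CPM with Norrin and 1.54 ± 0.915 CPM with vehicle (SD, n = 4 each).

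The other member protocadherins did not pass. Pcdh1 ran from 300.2 to 355 CPM with Norrin and from 320 to 367 CPM with vehicle, with a log2 fold change of −0.07 ± 0.05 (SE). Pcdh12 ran from 38.6 to 51.8 CPM with Norrin and from 41.7 to 50.5 CPM with vehicle, with a log2 fold change of −0.04 ± 0.09 (SE). Of 8 further non-clustered protocadherin genes listed, 4 were in the table, and 2 of the 4 rose, where 1.2% of all tested genes rose. Pcdh9 stood at 18.2, 22.5, 18.2 and 16.2 CPM in Norrin replicates 1 to 4, against 9.82, 9.06, 12.7 and 10.6 CPM in vehicle replicates 1 to 4. The groups were separate, and the log2 fold change was 0.83 ± 0.14 (SE; edgeR adjusted p = 0.000517, and at most 0.00704 over all alternatives). Pcdh20 stood at 5.89, 4.09, 3.88 and 3.17 CPM in Norrin replicates 1 to 4, against 2.24, 1.98, 2.32 and 1.13 CPM in vehicle replicates 1 to 4. Its groups were also separate, with a log2 fold change of 1.14 ± 0.29 (SE; edgeR adjusted p = 0.029). That call did not hold in the fits lacking Norrin replicate 1, Norrin replicate 2, vehicle replicate 2 or vehicle replicate 4 (log2 fold change 0.95, 1.17, 1.16 and 0.97; adjusted p = 0.192, 0.0705, 0.0663 and 0.117), nor in limma-voom (adjusted p = 0.0667). Pcdh7 and Pcdh19 did not pass, at −0.18 ± 0.17 and 0.06 ± 0.19 (SE) on the log2 scale.

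**Figure D4:**
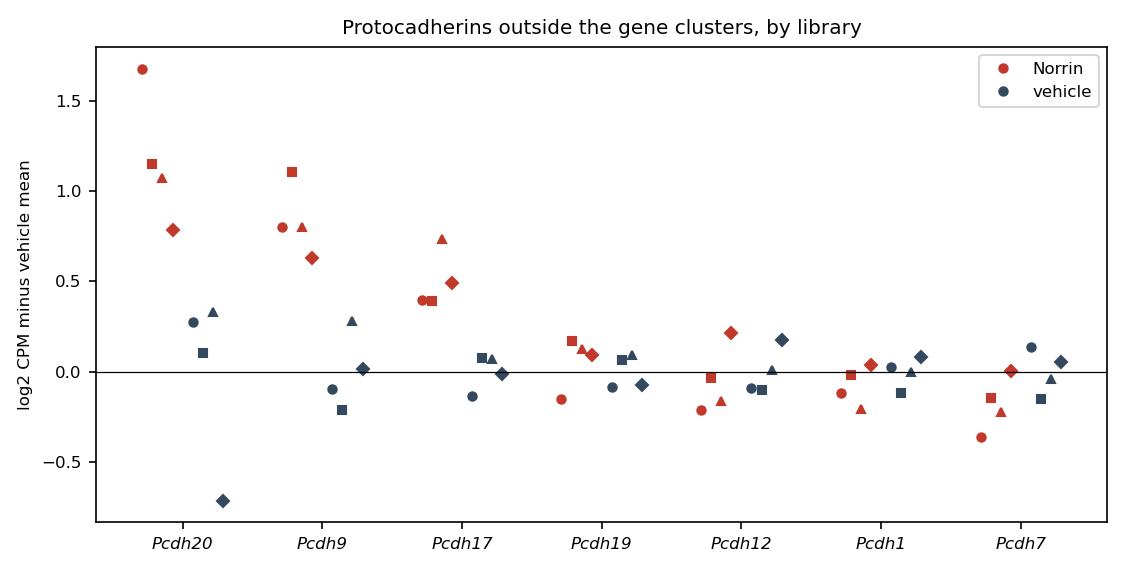
Level of 7 protocadherin genes outside the gene clusters in each library, as log2 CPM minus the mean of the 4 vehicle libraries. The Norrin libraries of Pcdh20, Pcdh9 and Pcdh17 lie above all vehicle libraries of the same gene, and those of Pcdh19, Pcdh12, Pcdh1 and Pcdh7 overlap with them.

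Of 58 listed genes of the clustered protocadherins, 34 were in the table, 33 had enough reads, and edgeR called 0 (3 unadjusted at p under 0.05, and 0 by DESeq2 or limma-voom). Their median log2 fold change was 0.05, with 25 above 0 and 8 below. Over all tested genes the median was 0.00, with 7017 above 0 and 6649 below. There edgeR called 2.17%, and 11.3% had an unadjusted p under 0.05. Genes of a gamma cluster share their last exons, so reads there cannot be placed with certainty. The most abundant was Pcdhgc3, at 186 ± 12.7 CPM with Norrin and 210 ± 9.57 CPM with vehicle (SD, n = 4 each). Its log2 fold change was −0.18 ± 0.05 (SE; edgeR adjusted p = 0.0859). Without Norrin replicate 4 it was −0.20 and passed (adjusted p = 0.0454), as it did with the replicate number as a block (−0.18, adjusted p = 0.04). Pcdhgb6 was at −0.08 ± 0.09 (SE).

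A list of cadherin-family genes outside the classical, protocadherin and desmosomal groups, among them the planar polarity and growth genes of the Celsr, Fat and Dchs families as well as Cdh17, Cdh23, Cdh26, Cdhr4 and Clstn1, had 10 of 22 listed genes in the table and 9 tested. Of these 9, 11.1% passed, beside 2.17% of all tested genes. Celsr1, a seven-pass cadherin gene of planar cell polarity, rose and the other 8 did not pass. It stood at 54.1, 63.8, 52.0 and 45.4 CPM in Norrin replicates 1 to 4, against 42.6, 41.9, 35.9 and 36.6 CPM in vehicle replicates 1 to 4. The groups were separate, Norrin replicate 4 lying nearest to vehicle, and the log2 fold change was 0.46 ± 0.09 (SE; edgeR adjusted p = 0.00428, and at most 0.0447 over all alternatives). The most abundant of the others, the protocadherin-type ligand and receptor genes Dchs1 and Fat4, were at 0.11 ± 0.05 and 0.01 ± 0.05 (SE) on the log2 scale. Desmosomal genes had 2 of 14 in the table. The tested one, Pkp2, was at −0.20 ± 0.12 (SE; edgeR adjusted p = 0.601).

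The catenin members did not pass. Ctnna1 ran from 831 to 865 CPM with Norrin and from 840.1 to 888 CPM with vehicle, with a log2 fold change of −0.03 ± 0.04 (SE; 95% interval −0.10 to 0.04). Ctnnd1 ran from 314 to 342 CPM with Norrin and from 307 to 333 CPM with vehicle, with a log2 fold change of 0.05 ± 0.05 (SE; 95% interval −0.04 to 0.14). Jup stood at 11.3, 14.4, 8.86 and 11.4 CPM in Norrin replicates 1 to 4, against 11.9, 13.9, 14.1 and 14.3 CPM in vehicle replicates 1 to 4. Its groups overlapped only through Norrin replicate 2, which lay above every vehicle library. The log2 fold change of Jup was −0.24 ± 0.15 (SE; edgeR adjusted p = 0.612; 95% interval −0.55 to 0.07).

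Of the other 5 tested catenin-family genes, Ctnnb1, the gene of beta-catenin, fell and 4 did not pass. It stood at 979, 961, 914 and 950.02 CPM in Norrin replicates 1 to 4, against 1152, 1153, 1083 and 1092 CPM in vehicle replicates 1 to 4. All Norrin libraries lay below all vehicle libraries, and Ctnnb1 fell by 0.24 on the log2 scale with an SE of 0.04 (edgeR adjusted p = 8.93e-05, and at most 0.00167 over all alternatives). Of the 4, the most abundant were Pkp4, of the p120-catenin family, and Ctnnal1, which encodes a relative of alpha-catenin. They were at 0.06 ± 0.08 and −0.27 ± 0.15 (SE) on the log2 scale. The groups did not overlap for 2 of the 5, Ctnnb1 and Ctnnal1, both lower with Norrin. Among all tested genes, 7.01% did not overlap.

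Ratios within a library set the catenins against each other and against VE-cadherin. The log2 ratio of Ctnna1 to Ctnnb1 was −0.20, −0.17, −0.14 and −0.14 in Norrin replicates 1 to 4, against −0.40, −0.38, −0.31 and −0.38 in vehicle replicates 1 to 4. The groups were separate and differed by 0.21 on the log2 scale. The exact permutation test gave p = 0.0286, the smallest that 4 against 4 libraries allow, and 0.114 adjusted over the 4 ratios, so it did not pass. Over 4 ratios, even this smallest p cannot pass unless other ratios have a low p too. The lower level of Ctnnb1 was known when this ratio was chosen. The log2 ratio of Jup to Ctnnb1 was −6.39 ± 0.257 with Norrin and −6.37 ± 0.159 with vehicle (SD, n = 4 each; exact permutation test p = 0.943). The log2 ratio of Ctnnd1 to Cdh5 was −2.65 ± 0.0922 with Norrin and −2.72 ± 0.0689 with vehicle (SD, n = 4 each; exact permutation test p = 0.257, adjusted 0.343).

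**Figure D5:**
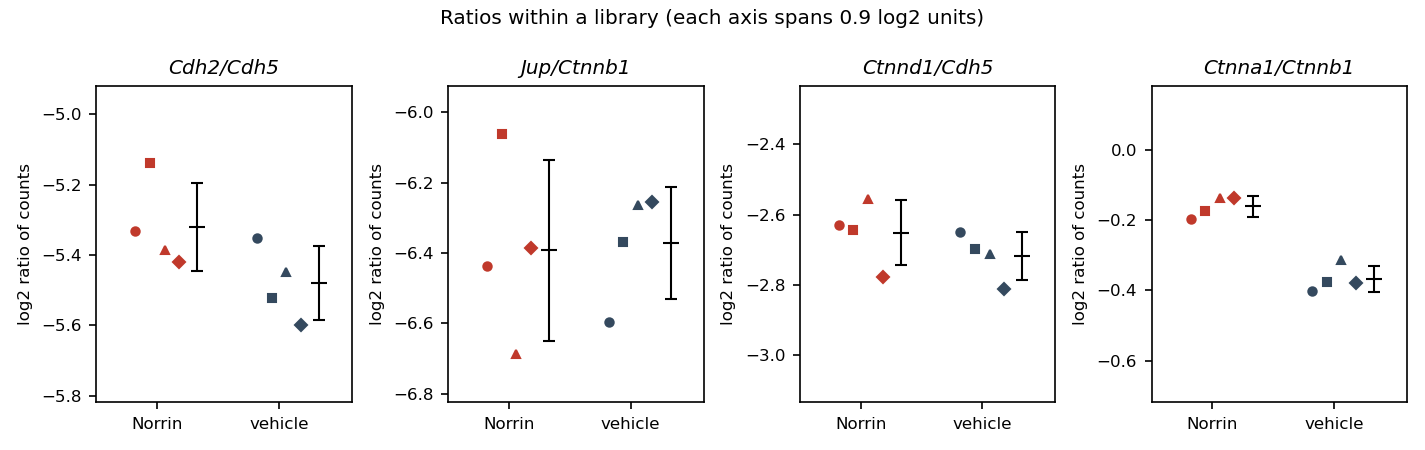
Log2 ratio of the counts of 2 genes within each library, in Norrin and vehicle cultures, with mean and SD beside each group; all axes span the same range of 0.9 log2 units. The groups are separate for Ctnna1 over Ctnnb1, at −0.16 (Norrin) and −0.37 (vehicle) on average, and overlap for the other 3 ratios.

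Of 20 genes that tie adherens junctions to actin, all 20 were tested, 3 rose, 0 fell and 17 did not pass. The share that passed was 15.0%, beside 2.17% of all tested genes. Iqgap1, a scaffold that binds actin, cadherin and beta-catenin, stood at 1276, 1353, 1300.5 and 1193 CPM in Norrin replicates 1 to 4, against 1119.5, 1156.5, 1148 and 1144 CPM in vehicle replicates 1 to 4. It rose by 0.16 ± 0.04 (SE) on the log2 scale (edgeR adjusted p = 0.00814), and without Norrin replicate 2 the call was lost (0.14, adjusted p = 0.0564). Lima1, encoding the alpha-catenin partner EPLIN, rose by 0.24 ± 0.06 (SE; edgeR adjusted p = 0.0205), with Norrin replicate 4 at 221 CPM inside the vehicle range of 214 to 228 CPM. The call held with Norrin replicate 4 or vehicle replicate 1 left out. It was lost with any 1 of the other 6 libraries left out (log2 fold change 0.21 to 0.24, adjusted p = 0.0615 to 0.112) and in limma-voom (adjusted p = 0.0658). Actn4, an actin-crosslinking protein gene, rose by 0.13 ± 0.03 (SE; edgeR adjusted p = 0.0331). The call did not hold in the fits lacking Norrin replicate 1 or vehicle replicate 2, 3 or 4 (0.10 to 0.13, adjusted p = 0.104 to 0.143). Tjp1, the gene of ZO-1, and Vcl, the gene of vinculin, were at −0.04 ± 0.03 and 0.04 ± 0.04 (SE) on the log2 scale.

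Among genes that phosphorylate, dephosphorylate, cleave or degrade junction proteins, 19 of 20 listed were tested, 2 fell, 0 rose and 17 did not pass. The share that passed was 10.5%, beside 2.17% of all tested genes. Ptprm, a receptor phosphatase that binds cadherins, stood at 430 ± 11.8 CPM with Norrin and 488 ± 26.4 CPM with vehicle (SD, n = 4 each), and fell by 0.18 on the log2 scale (edgeR adjusted p = 0.0162). This did not hold in the fits lacking Norrin replicate 1 or vehicle replicate 1 or 4 (−0.15 to −0.17, adjusted p = 0.0673 to 0.122). By the authors' deposited RPKM the fold of Ptprm was 0.981, nearer to no change than the 0.881 from counts. Ptk2, the gene of focal adhesion kinase, stood at 401 ± 17.8 CPM with Norrin and 453 ± 10.2 CPM with vehicle (SD, n = 4 each), and fell by 0.18 on the log2 scale (edgeR adjusted p = 0.0187). This did not hold in the fits lacking Norrin replicate 2 or 3 or vehicle replicate 1, 3 or 4 (−0.16 to −0.18, adjusted p = 0.0542 to 0.0999). Ptprb, encoding the VE-cadherin phosphatase VE-PTP, was at 0.00 ± 0.04 (SE), and Kdr, the VEGF receptor gene, at −0.11 ± 0.03 (SE; edgeR adjusted p = 0.104, and 0.045 by DESeq2). Without Norrin replicate 4, the kinase gene Fyn also passed (−0.19, adjusted p = 0.0448).

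Genes of Rap1 and of the cerebral cavernous malformation complex, which steady VE-cadherin at junctions, had 12 of 12 tested, of which edgeR called 0 (2 unadjusted at p under 0.05, and 0 by DESeq2 or limma-voom). The most abundant, Rapgef1 and Heg1, were both at −0.04 ± 0.04 (SE) on the log2 scale. Among repressors of cadherin genes and factors of epithelial-mesenchymal transition, 6 of 10 listed had enough reads, and edgeR called 0 (0 also unadjusted at p under 0.05, and 0 by DESeq2 or limma-voom). Zeb1 and Tcf3 were both at 0.02, with SEs of 0.05 and 0.06. Over all these lists, 6 of 111 tested genes rose and 3 fell, or 8.11%, beside 2.17% of all tested genes, with a median log2 fold change of −0.01. The lists were written with earlier results of these data known, so the share is a description.

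The genes whose profile over the 8 libraries was most like that of Cdh6 were ranked by the root mean square difference of centred log2 CPM, over 13289 genes of at least 1 CPM in 1 group. Eln, the elastin gene, came first at 0.222, followed by Papln at 0.232, Klhl6 at 0.249, Nepn at 0.267 and Gm40447 at 0.280, beside a median of 0.655 over all ranked genes. Eln stood at 10.4, 10.9, 7.47 and 9.08 CPM in Norrin replicates 1 to 4, against 18.5, 15.2, 19.4 and 15.6 CPM in vehicle replicates 1 to 4. All 5 had every Norrin library below every vehicle library, which the measure favours since it includes the difference between groups.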

How the data were processed

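RNA-seq libraries of 4 Norrin and 4 vehicle cultures were compared, grouped by the sample titles. The authors deposited 1 table with estimated counts per gene and library, and in the same table a deposited RPKM value per group and a fold, the ratio of the Norrin to the vehicle RPKM, per the file headers. Per the submitters' processing notes reads were handled with STAR (version not given). For the counter, its strand setting, the build and the annotation, the sources used here give nothing, and antisense and overlapping genes are therefore uncertain. Of 123616 counts, 635 differed from a whole number by over 0.01 and were rounded. A single unnamed row without counts was left out. The lowest vehicle RPKM was 0.1, so genes silent with vehicle may be missing.

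The test was edgeR's (version 4.0.16, R 4.3.3; filterByExpr, TMM, robust quasi-likelihood fit, two-sided), adjusted by Benjamini-Hochberg over 13666 genes at a threshold of 0.05. The filter left out 1786 genes. The common dispersion of 0.0124 is a coefficient of variation of 11.2%. In CPM, 3 counts equal 0.193 to 0.241 depending on the library, a floor for counting error alone. The fit was first tested on simulated data. Ratios between genes were tested by exact permutation over libraries. Alternatives were DESeq2 size factors, no filter or a stricter one (10 counts in every library of a group), DESeq2 1.42.0, limma-voom (limma 3.58.1), a block for replicate number, leaving out each library and a threshold of 0.01. Ratios were also computed with 5 counts added and as pairs. The search for CAAAG was added after the longer core was not found.

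The members and the gene lists were chosen with earlier results of these data known. Named genes are all members, up to 6 called and the 2 most abundant uncalled genes of each list, Ctnnb1 and Axin2 by name, and the 5 genes most like Cdh6. Libraries of a group differed by more than sampling noise (chi-square over degrees of freedom, 5.73 to 15.6). Sequences are from RefSeq.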

Additional observations from a re-analysis of the deposited data

Results flagged for a closer look

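In 3 of 86 groups of 4 libraries examined, 1 library stood far from the others by Dixon's gap test, where chance flags about 1 in 20 groups. Jup had 11.9 CPM in vehicle replicate 1, below 13.9, 14.1 and 14.3 CPM in vehicle replicates 2 to 4. Lima1 had 221 CPM in Norrin replicate 4 (221.36), below 271, 277 and 268 CPM in Norrin replicates 1 to 3. Pcdhgb6 had 35.5 CPM in Norrin replicate 3 (35.504), below 42.1, 41.2 and 42.4 CPM in Norrin replicates 1, 2 and 4.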

How the results depend on the processing

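With each library left out in turn, 206 to 452 genes passed over all tested genes (296 with all libraries, 452 without Norrin replicate 4), 0 to 1 of the 9 members other than Cdh6, and 4 to 11 of the other listed genes (9 with all libraries). At an adjusted p under 0.01 these counts were 171, 0 and 4. Some values, most of them near 0, changed sign with a library left out: Cdh5 (−0.0315 to 0.00344), Pcdh12 (−0.14 to 0.0183), Cdh18 (−0.22 to 0.054), Cdh24 (−0.46 to 0.28), Fat4 (−0.019 to 0.0428), Ptprb (−0.0108 to 0.0162), Zeb1 (−0.00372 to 0.0506), Tcf3 (−0.0178 to 0.0637) and the log2 ratio of Jup to Ctnnb1 (−0.13 to 0.0768). Cdh24 was at −0.18 with all libraries and rested on 6 to 43 reads per library. Ptprb was also below 0 with DESeq2 size factors (−0.000147), without a filter (−0.000291) and by DESeq2 (−0.00017). Other settings kept the direction of every member. The cause was not tested.

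With the replicate number as a block, 402 genes passed in place of 296, and 10 in place of 9 of the other listed genes. The deviations of same-numbered libraries correlated at −0.03, 0.01, 0.04 and 0.09, and not every library correlated best with its own number. With 4 libraries per group, such correlations cannot show whether the numbers pair the cultures. As 4 pairs, no ratio could pass, since the smallest two-sided p is 0.125. With 63 to 249 reads per library, counting error limits Cdh6 most among the members.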

Other observations

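The authors' deposited table gives Ctnna1, the alpha-catenin gene, an RPKM of 397 with Norrin and 364 with vehicle, a fold of 1.09 or 0.12 on the log2 scale. The estimated counts of the same table give −0.03, so the sign differs between the deposited RPKM and the counts for this gene. For the other 9 members the log2 of the deposited fold has the sign of the value from counts, as for Cdh6 (−1.29 in the authors' deposited table and −1.26 from counts) and Pcdh17 (0.49 in the authors' deposited table and 0.51 from counts).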
